A study of Homo sapiens with 5 samples.

Results

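The unfolded protein response and the integrated stress response were examined through 10 genes, HSPA5, ATF4, ATF6, XBP1, DDIT3, ERN1, EIF2AK3, PPP1R15A, TRIB3 and SESN2, of 20033 protein-coding genes in GENCODE 44. They were taken by name as sensors, transcription factors and feedback genes of these pathways. CUT&RUN, in which an antibody brings a nuclease to a chromatin protein so that the DNA around it is cut out and sequenced, had been done in OVCAR8 cells, an established human ovarian carcinoma line in which the genes for HSF1 and MYC are both amplified. All libraries came from untreated cells of this line, at 500000 cells per reaction fixed for 1 minute in 1% formaldehyde. The groups are described as differing only in the antibody. There were 2 HSF1 libraries, 2 MYC libraries and an IgG control, and nothing in the labels says that the replicates came from separate cultures. These are peak lists of a single line with no expression values, so the labelled cell type could not be checked against markers, and no stressed cells were compared.

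When unfolded proteins build up in the endoplasmic reticulum (ER), 3 membrane sensors respond. ERN1 (IRE1) splices the XBP1 mRNA, ATF6 is cut to release a transcription factor, and EIF2AK3 (PERK) phosphorylates the translation factor eIF2α, which lowers protein synthesis but favours translation of ATF4. HSF1 runs the separate cytosolic heat shock response, and MYC is a growth-promoting transcription factor that binds E-boxes at many active promoters.

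The MYC lists held peaks at 10 and 9 of these genes, and the HSF1 lists, called at a different threshold, at 4 and 0. Each gene was searched from 5 kb upstream of its start to its end (GRCh38). MYC replicate 1 held a peak at all 10 genes (63.3% of all protein-coding genes had one) and MYC replicate 2 at 9 (46.2% of all genes), the exception being SESN2. The same 9 genes therefore had MYC peaks in both replicates, against 45.4% of all genes. HSF1 replicate 1 held peaks at 4 genes, ATF4, ERN1, EIF2AK3 and PPP1R15A (16.5% of all genes), and HSF1 replicate 2 at none (12.3% of all genes). No gene had an HSF1 peak in both replicates, against 7.81% of all genes.

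These 4 HSF1 peaks overlapped MYC peaks by at least 1 bp, so 4 genes had overlapping peaks in replicate pair 1 (13.2% of all genes), 0 in replicate pair 2 (6.96%) and 0 in both pairs (4.2%). The windows of the 10 genes were shorter, with a median of 19752 bp against 32471 bp for all genes. Since the lists hold 2 replicates per factor, an exact two-sided permutation test could not give a p below 0.333, and the counts are given as descriptions beside the share of all genes.

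**Figure D1:**
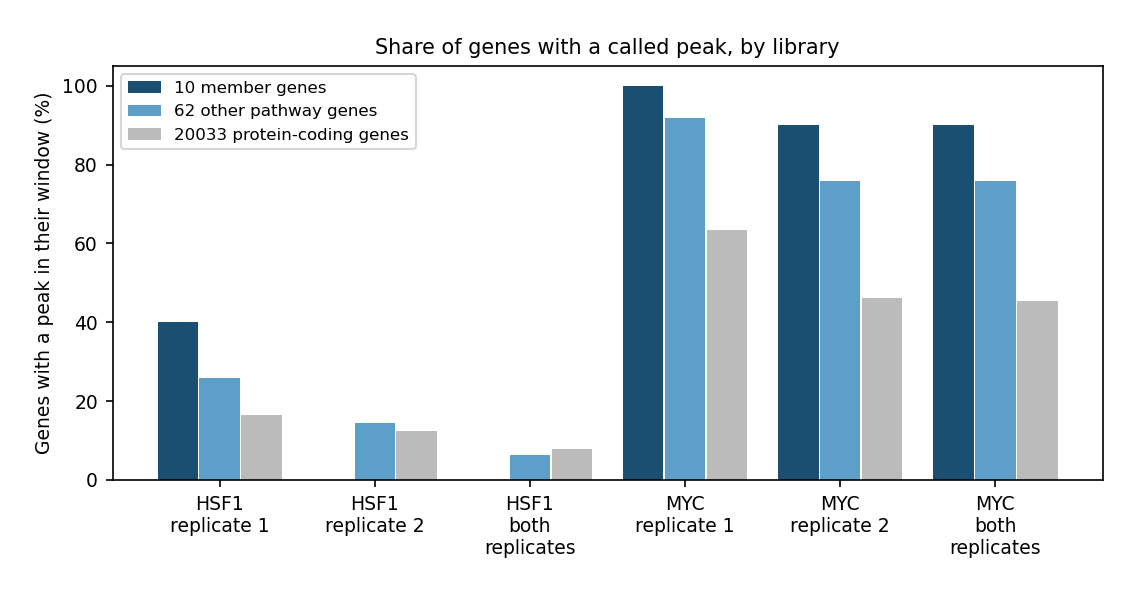
Percent of genes with at least 1 called peak from 5 kb upstream of the gene to its end, for the 10 stress genes, 62 other genes of the same pathways and all 20033 protein-coding genes, in each list and in both replicates of a factor. The 10 genes stand at 100% and 90% in the MYC lists, at 40% in HSF1 replicate 1 and at 0 in HSF1 replicate 2.

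The libraries held 8265647 to 10084407 fragments after filtering, and the lists 6421 and 4459 HSF1 peaks and 25623 and 13278 MYC peaks on chromosomes 1 to 22, X and Y. The authors called HSF1 peaks at p = 1e-04 and MYC peaks at p = 1e-10, so heights and counts are compared within a factor. MYC replicate 1 was the smaller MYC library and had the longer list. A pileup is the number of fragments over the summit, the highest point of a peak, and fold enrichment is the ratio of the pileup to the local IgG background, with 1 added to each.

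The 4 HSF1 peaks were low in fold enrichment. At ERN1, HSF1 replicate 1 had a peak at chr17:64130148-64130378 with a pileup of 13 (95% exact Poisson interval 6.92 to 22.2, counting error only) and a fold enrichment of 4.43. At PPP1R15A the peak at chr19:48872164-48872419 had a pileup of 9 (4.12 to 17.1) and a fold enrichment of 3.82. At EIF2AK3 the peak at chr2:88627555-88628124 had a pileup of 11 (5.49 to 19.7) and a fold enrichment of 3.25, and at ATF4 the peak at chr22:39519944-39520113 had a pileup of 10 (4.80 to 18.4) and a fold enrichment of 3.21. None of the 4 exceeded 13 fragments at its summit, and their intervals overlap. Such pileups were usual in the list of HSF1 replicate 1, whose median was 11. The local IgG background under the 4 summits, 1.62 to 2.70, was above the list median of 1.08. Their fold enrichments were below the list median of 5.00.

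Against the IgG background under each summit, the smallest pileup that passes the HSF1 threshold was 10 at ATF4 and 11 at EIF2AK3, the values observed. It was 8 at PPP1R15A and 9 at ERN1. In the list of HSF1 replicate 1, 4.50% of peaks had a lower fold enrichment than the ATF4 peak, 4.59% than the EIF2AK3 peak, 15.8% than the PPP1R15A peak and 35.4% than the ERN1 peak. By fold enrichment all 4 were thus in the lower part of their own list, and those at ATF4 and EIF2AK3 stood exactly at the limit of calling.

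Peaks with a −log10 p in the range of these 4 were less often called again in HSF1 replicate 2 than stronger ones. Of the 3626 HSF1 replicate 1 peaks with −log10 p from 4 to 8, the range that holds these 4, 19.9% overlapped a peak of HSF1 replicate 2, against 52.3% of the 2795 stronger peaks. For scale, at the cytosolic chaperone gene HSPA8, a well-known HSF1 target, the HSF1 fold enrichment was 42.7 and 45.5 in replicates 1 and 2, and at HSP90AA1, HSPH1 and DNAJB1 it lay between 23.9 and 59.4. A gene without a peak in HSF1 replicate 2 was not called at that depth, which leaves weaker occupancy undetected.

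All 4 HSF1 peaks coincided with a MYC replicate 1 peak over most or all of their length. The ERN1, EIF2AK3 and ATF4 peaks were covered over 100% of their length by a MYC replicate 1 peak and the PPP1R15A peak over 96.5%, with MYC fold enrichments there of 24.1, 23.7, 22.9 and 12.4. The ATF4 and ERN1 peaks were also covered by MYC replicate 2 peaks. This overlap was common in the list: of the HSF1 replicate 1 peaks with −log10 p from 4 to 8, 63.0% overlapped a MYC replicate 1 peak and 31.6% a MYC replicate 2 peak.

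No heat shock element (GAA, TTC and GAA, or the reverse, 5 bp apart) was found on either strand in any of these 4 HSF1 peaks, nor any 2 adjoining units of it. Neither was found within 100 bp of their summits. Among all peaks of HSF1 replicate 1, 6.51% held the full element within 100 bp of the summit and 23.9% held 2 adjoining units. Most peaks of the list thus lacked them too.

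**Figure D2:**
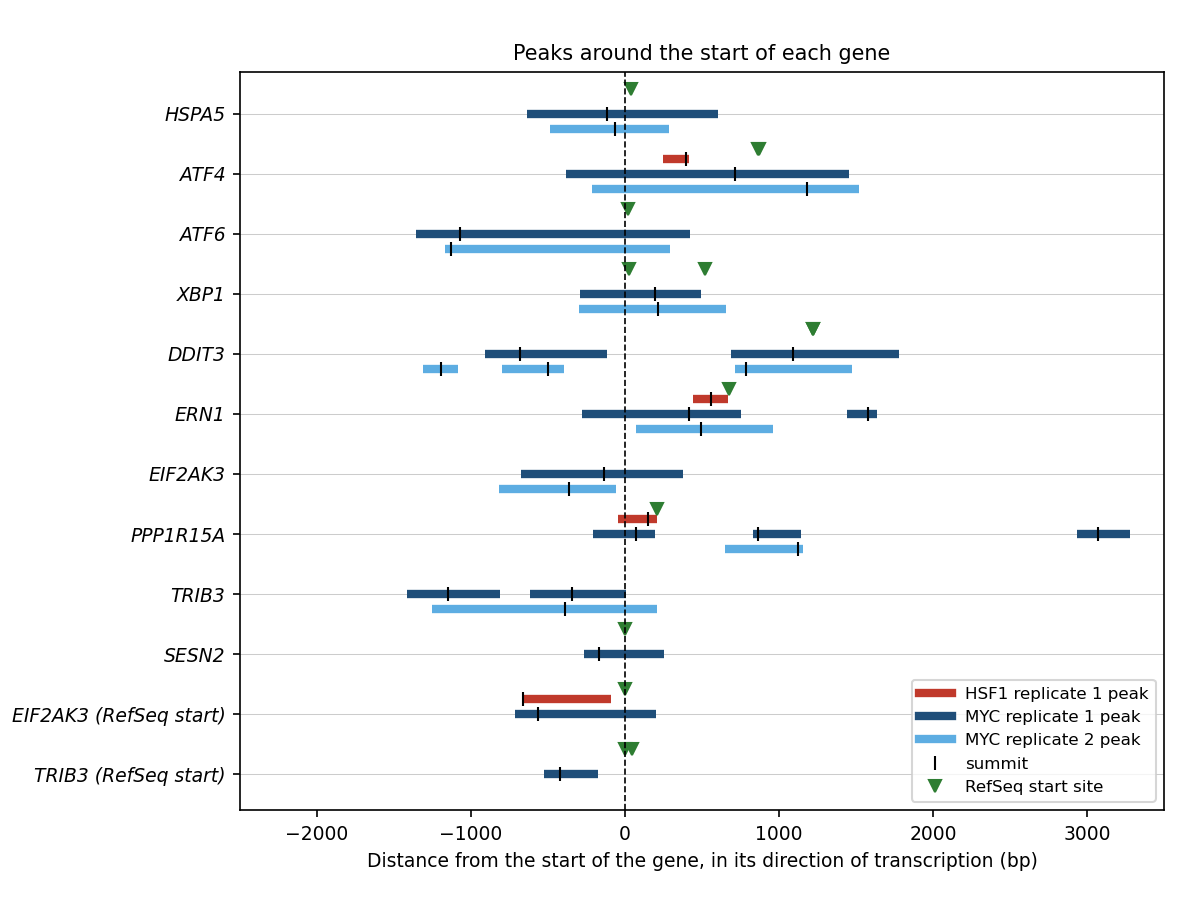
Called peaks (bars) and their summits (black ticks) by distance in bp from the GENCODE start of each gene, in its direction of transcription, with RefSeq start sites as green triangles. The lowest rows centre EIF2AK3 and TRIB3 on their RefSeq starts, which lie 64054 and 18460 bp inside the gene; the HSF1 bars at ATF4, ERN1, PPP1R15A and EIF2AK3 fall on MYC replicate 1 bars.

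Among the sensors, HSPA5 (chr9:125234853-125241382, minus strand) encodes BiP, the main ER chaperone, which holds the 3 sensors inactive. Its MYC peak at chr9:125240779-125242018 in replicate 1 had a pileup of 42 and a fold enrichment of 9.45, and its peak at chr9:125241095-125241867 in replicate 2 had a pileup of 39 and a fold enrichment of 5.75. The summits lay 115 and 65 bp upstream of the gene start. Both peaks were called in a promoter with much IgG signal: the local IgG background of 3.55 and 5.96 was the highest among the member peaks of each MYC list. Only 25.7% and 2.33% of the peaks in their lists had a lower fold enrichment.

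The 211 bases upstream of the HSPA5 start are shown because they hold both MYC summits and the ER stress response element, the CCAAT and CCACG pair read by ATF6 and NF-Y, in capitals (chr9:125241383-125241593, GRCh38, minus strand, 5′ to 3′).
HSPA5 upstream: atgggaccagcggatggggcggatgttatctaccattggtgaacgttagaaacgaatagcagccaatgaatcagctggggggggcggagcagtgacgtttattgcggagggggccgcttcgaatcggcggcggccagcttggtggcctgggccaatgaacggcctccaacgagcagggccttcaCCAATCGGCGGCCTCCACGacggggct
The element in capitals lay 47 bp from the MYC replicate 2 summit. Only exact matches were marked, and near matches, such as a CCAAT and CCAAC pair at the same spacing, stand in lower case. Neither the E-box CACGTG nor the heat shock element was found in either MYC peak.

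ERN1 (chr17:64039080-64130819, minus strand) encodes the kinase and endoribonuclease IRE1. MYC replicate 1 had a peak at chr17:64130068-64131096 with a pileup of 66 and a fold enrichment of 24.1, and a small second peak at chr17:64129184-64129377 with a pileup of 12 and a fold enrichment of 7.56. MYC replicate 2 had a peak at chr17:64129861-64130746 with a pileup of 38 and a fold enrichment of 14.1. The main summits lay 261 and 182 bp upstream of the RefSeq start, and the HSF1 summit 117 bp upstream of it, so that all 3 fell in the same stretch of the promoter. A lncRNA gene, ENSG00000289957, starts 37 to 107 bp from these summits, and the lists cannot assign the peaks to either gene.

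ATF6 (chr1:161766298-161977574, plus strand) encodes the sensor that becomes a transcription factor once cleaved in the Golgi. Its MYC peaks at chr1:161764940-161766717 in replicate 1 and chr1:161765132-161766590 in replicate 2 had pileups of 29 and 24 and fold enrichments of 12.9 and 9.52. The peaks covered the gene start, but their summits lay 1074 and 1128 bp upstream, 903 and 957 bp from a start of the divergent lncRNA ATF6-DT. Both replicates therefore placed the maximum away from the ATF6 start.

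EIF2AK3 (chr2:88556741-88691518, minus strand) encodes PERK, the ER kinase of eIF2α. Here the choice of start mattered, because GENCODE begins the gene 64054 bp upstream of the RefSeq start. At the RefSeq start, MYC replicate 1 had a peak at chr2:88627261-88628179 with a pileup of 55 and a fold enrichment of 23.7, with its summit 566 bp upstream of it and 141 bp from a start of the divergent lncRNA EIF2AK3-DT, and MYC replicate 2 had none. At the GENCODE start, MYC replicate 1 had a peak at chr2:88691141-88692193 with a pileup of 37 and a fold enrichment of 16.3 and MYC replicate 2 one at chr2:88691574-88692335 with a pileup of 29 and a fold enrichment of 14.0. Those summits lay 18 and 208 bp from a start of RPIA, a gene of the pentose phosphate pathway. The peak that made EIF2AK3 positive in both MYC replicates was thus at a start shared with RPIA.

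Of the MYC peaks at the 10 genes, only the replicate 2 peak at the EIF2AK3 and RPIA start and the replicate 1 peak at ATF4 held the E-box CACGTG within 100 bp of the summit. The 3 sites are printed with 12 bases on either side and the E-box in capitals (GRCh38, strand of the gene).
EIF2AK3 upstream, chr2:88691804-88691833: ccccggcagccgCACGTGggaacccgggag
EIF2AK3 upstream, chr2:88691963-88691992: agtgctcaccctCACGTGgttctccacagc
ATF4, chr22:39520465-39520494: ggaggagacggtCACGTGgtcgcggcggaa
That was 2 of 28 member MYC peaks, against 6.74% of all MYC replicate 1 peaks and 6.82% of all MYC replicate 2 peaks. Over the whole length of the peaks 6 of 17 in replicate 1 and 4 of 11 in replicate 2 held it, against 18.5% and 21.3% of all peaks of those lists, whose median widths of 460 and 451 bp were below the 790 and 773 bp of the member peaks.

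Among the transcription factors, XBP1 (chr22:28794555-28800597, minus strand) becomes active after ERN1 splices its mRNA. Its MYC peak at chr22:28800101-28800890 in replicate 1 had a pileup of 27 and a fold enrichment of 17.9, and that at chr22:28799938-28800894 in replicate 2 a pileup of 33 and a fold enrichment of 19.7. XBP1 was an exception among the genes, with the higher fold enrichment in replicate 2. The summits, 198 and 216 bp inside the gene start, differed by 18 bp.

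The XBP1 promoter, like that of HSPA5, held an exact match to the ER stress response element, and no other of the 10 promoters did. Near matches were not counted: the DDIT3 promoter, for example, holds the same spacing with CCACT in place of CCACG. The exact match is printed below for XBP1 and HSPA5, in capitals, on the strand of the gene (GRCh38).
HSPA5, chr9:125241386-125241414: cttcaCCAATCGGCGGCCTCCACGacggg
XBP1, chr22:28800598-28800626: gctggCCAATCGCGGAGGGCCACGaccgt
Of 15345 RefSeq promoters, each from 250 bases before to 50 after a start, 19 (0.124%) held an exact match on either strand. Both copies lay inside MYC peaks of both replicates, the XBP1 copy 213 bp from the nearest MYC summit.

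ATF4 (chr22:39519695-39522683, plus strand) encodes the factor at the centre of the integrated stress response. Its MYC peaks were the broadest of each MYC list among these genes, and spanned chr22:39519315-39521150 in replicate 1, with a pileup of 77 and a fold enrichment of 22.9, and chr22:39519481-39521213 in replicate 2, with a pileup of 54 and a fold enrichment of 15.3. The summits lay 147 bp upstream and 313 bp downstream of the nearest RefSeq start, on either side of it. The E-box printed above was 68 bp from the replicate 1 summit, and ATF4 was the only member whose RefSeq promoter held an E-box, which 8.89% of all promoters held.

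DDIT3 (chr12:57516588-57521737, minus strand) encodes CHOP, which promotes cell death in lasting ER stress. MYC replicate 1 had peaks at chr12:57519956-57521048 with a pileup of 49 and a fold enrichment of 19.8, and at chr12:57521852-57522645 with a pileup of 49 and a fold enrichment of 18.0. MYC replicate 2 had 3 lower peaks there, with pileups of 22, 25 and 17 and fold enrichments of 7.26, 9.78 and 7.35. The first peak of each list lay 127 and 434 bp upstream of the RefSeq start of DDIT3, and starts of MBD6, the neighbouring gene, lay between 14 and 403 bp from 4 of the 5 summits, so that this signal cannot be assigned to DDIT3 alone.

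Both MYC lists covered a C/EBP-ATF element at DDIT3, the kind of site through which ATF4 and C/EBP factors act (TGATGNAA, on either strand), 134 bp from the MYC replicate 2 summit. A MYC replicate 1 peak at TRIB3 covered 3 copies in a row, whose 30-base surroundings are identical in sequence. They are shown, with the element in capitals and on the strand of the gene (GRCh38), since both are known ATF4 target genes.
DDIT3, chr12:57520802-57520831: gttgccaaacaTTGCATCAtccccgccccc
TRIB3, chr20:380881-380910: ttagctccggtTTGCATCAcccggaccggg
TRIB3, chr20:380914-380943: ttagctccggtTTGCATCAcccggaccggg
TRIB3, chr20:380947-380976: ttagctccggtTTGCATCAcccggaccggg
The TRIB3 copies lay 25, 58 and 91 bp from the summit. A further match, 110 bp from the summit of the strongest TRIB3 peak, lay in MYC peaks of both replicates. Of all MYC replicate 1 peaks, 2.32% held this element within 100 bp of the summit, as did 1 of the 17 at these genes. In MYC replicate 2 it was 1.38% of all peaks and 0 of 11. The DDIT3 site and the further TRIB3 match lay beyond that distance, and no share over whole peaks was taken for the lists.

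Of the feedback genes, TRIB3 (chr20:362835-397559, plus strand) encodes a pseudokinase induced by ATF4 and CHOP that restrains them. It held the strongest MYC peak of the set: chr20:362215-362844 in replicate 1 had a pileup of 78 and a fold enrichment of 47.0, above 99.7% of the list, and chr20:361584-363042 in replicate 2 had a pileup of 39 and a fold enrichment of 21.3. The summits, 341 and 388 bp upstream of the GENCODE start, lay over 18 kb upstream of the RefSeq start. At the RefSeq start, MYC replicate 1 had a peak at chr20:380770-381117 with a pileup of 30 and a fold enrichment of 11.2, the peak with the 3 C/EBP-ATF elements, and MYC replicate 2 had none. A further MYC replicate 1 peak at chr20:361421-362021 had a pileup of 34 and a fold enrichment of 9.55. The strongest peak held an E-box, in capitals below (GRCh38, plus strand), 152 bp from its summit, and is shown as the site within the highest MYC signal of the set.
TRIB3 upstream, chr20:362631-362660: tccggcccgggaCACGTGgtcagggcaggg

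PPP1R15A (chr19:48872212-48876059, plus strand) encodes GADD34, the stress-induced phosphatase subunit that restores eIF2α. MYC replicate 1 had peaks at chr19:48872003-48872410, chr19:48873040-48873358 and chr19:48875144-48875492, with pileups of 28, 21 and 25 and fold enrichments of 12.4, 10.8 and 7.10. MYC replicate 2 had a single peak, at chr19:48872863-48873366, with a pileup of 21 and a fold enrichment of 8.98. Only replicate 1 had a MYC peak over the gene start, where the HSF1 peak also lay. The peaks found in both MYC lists were inside the gene, with summits 862 and 1125 bp from its start.

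SESN2 (chr1:28259518-28282491, plus strand) encodes sestrin 2, an ATF4 target that restrains the growth kinase mTORC1. MYC replicate 1 had a peak at chr1:28259249-28259774 with a pileup of 26 and a fold enrichment of 17.0, its summit 168 bp upstream of the start, and MYC replicate 2 had none. By fold enrichment the replicate 1 peak was not a weak call, since 77.6% of its list had a lower value. Its pileup was near the list median of 25, over a local IgG background of 0.592 against a list median of 1.04. Of the 4405 MYC replicate 1 peaks with fold enrichments from 15 to 20, 70.3% overlapped a MYC replicate 2 peak.

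**Figure D3:**
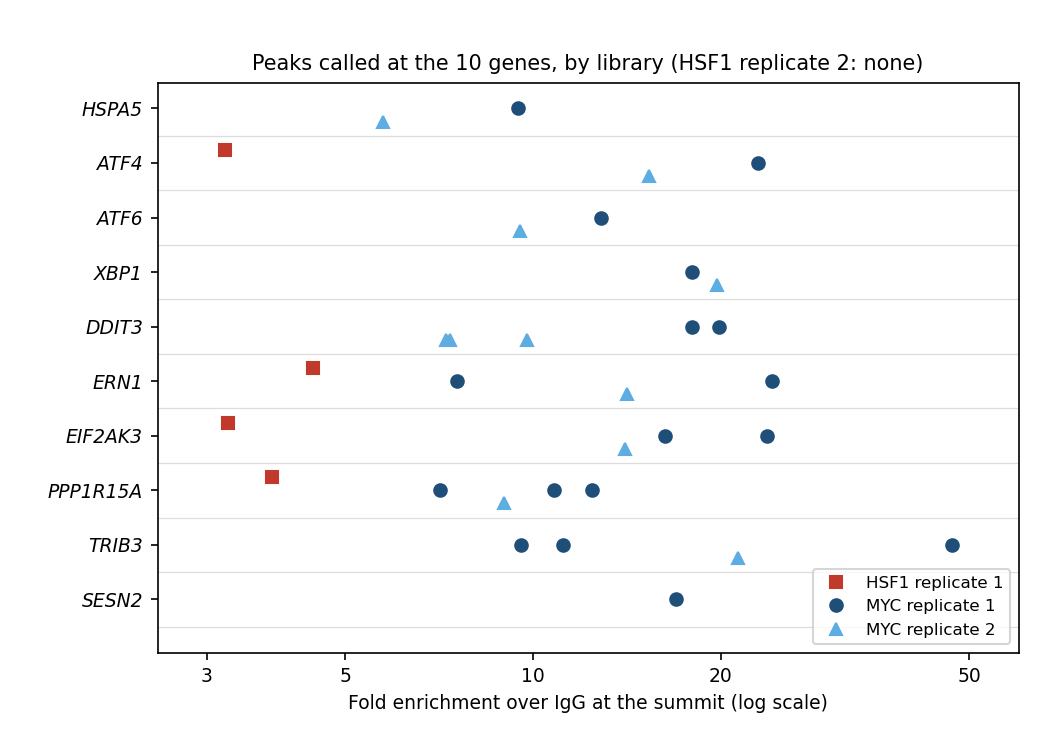
Fold enrichment over IgG (log scale) of every peak called at the 10 genes, a point for each peak, by library. HSF1 replicate 1 points lie between 3.21 and 4.43, MYC replicate 1 points between 7.10 and 47.0 and MYC replicate 2 points between 5.75 and 21.3, and HSF1 replicate 2 has none.

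Across the genes, MYC replicate 1 gave 17 peaks with a median fold enrichment of 16.3 and MYC replicate 2 gave 11 with a median of 9.78. In the 11 pairs of overlapping MYC peaks the ratio of replicate 1 to replicate 2 fold enrichment had a median of 1.50 and was above 1 in 9. The same held list-wide, where 12567 overlapping pairs had a median ratio of 1.40 and 81.5% were above 1. Taking the strongest peak per gene, the median was 18.9 for the 10 genes in MYC replicate 1 against 15.2 for all genes with a peak, and 14.0 for 9 genes against 12.0 in MYC replicate 2. In HSF1 replicate 1 it was 3.53 for 4 genes against 5.29.

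**Figure D4:**
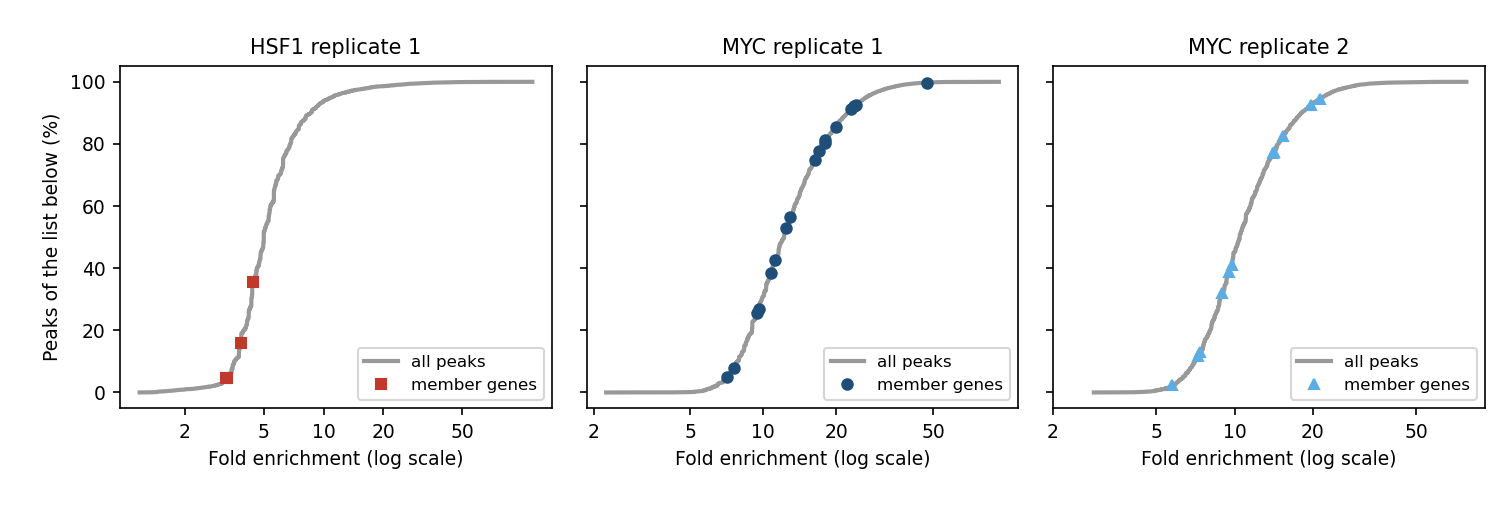
Percent of the peaks in a list that lie below a given fold enrichment (log scale), as a grey curve for all peaks of HSF1 replicate 1, MYC replicate 1 and MYC replicate 2, with the peaks at the 10 genes as coloured points. HSF1 points reach no higher than 35.4%, whereas MYC points spread from 4.98% to 99.7% in replicate 1 and from 2.33% to 94.4% in replicate 2.

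Peaks covered the GENCODE start of their gene in 9 of 17 cases in MYC replicate 1, 5 of 11 in MYC replicate 2 and 1 of 4 in HSF1 replicate 1. Within 5 kb upstream to 1 kb downstream of the GENCODE start, 10 genes had a MYC replicate 1 peak (50.8% of all genes), 9 a MYC replicate 2 peak (37.4%) and 9 both (36.3%). In that window 3 genes had an HSF1 replicate 1 peak (7.7% of all genes), EIF2AK3 falling outside it, and 0 had HSF1 peaks in both replicates (3.04%). With RefSeq starts in place of GENCODE starts, chosen after the data were seen and possible for 15344 genes, 4 genes had an HSF1 replicate 1 peak (8.79% of genes), 0 had HSF1 peaks in both replicates (3.53%) and 10 had a MYC replicate 1 peak (57.2%). MYC peaks in both replicates then remained at 7 genes (41.5% of genes), without EIF2AK3, TRIB3 and SESN2.

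The other genes of these pathways, a list of 62 with 5 groups, were counted in the same windows. MYC peaks were called in both replicates at 47 (75.8%; 45.4% of all genes) and in neither at 5. HSF1 peaks were called at 16 in replicate 1 (25.8%; 16.5% of all genes), at 9 in replicate 2 (14.5%; 12.3% of all genes) and at 4 in both (6.45%; 7.81% of all genes). How the share in both replicates stood to that of all genes turned with the window. The same count of 4 stood against 3.04% of all genes within 5 kb upstream to 1 kb downstream of the GENCODE start, and with RefSeq starts it was 4 of 54 (7.41%) against 3.53%.

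By group, both MYC replicates had peaks at 20 of 27 ER folding and degradation genes, 12 of 16 ATF4 targets, 6 of 8 other transcription factors, 4 of 6 processing and signalling partners, and all 5 genes for eIF2α, its other kinases and its constitutive phosphatase subunit. The highest mean MYC fold enrichments were 29.5 at SLC7A5, which encodes an amino acid transporter, 24.3 at CHAC1, which encodes a glutathione-degrading enzyme, 23.4 at OS9 and 23.4 at DERL2, both of ER-associated degradation, and 23.1 at EIF2S1, which encodes eIF2α. At HSP90B1, the ER HSP90, MYC fold enrichment was 33.1 in replicate 1 and 9.37 in replicate 2, and at CALR, the chaperone calreticulin, 21.2 and 13.5. Both had an HSF1 peak in replicate 1 alone, with fold enrichments of 6.02 and 3.82.

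PPP1R15B, which encodes the constitutive eIF2α phosphatase subunit, had MYC fold enrichments of 8.73 and 11.5, and EIF2AK4 (GCN2), the amino acid sensor among the eIF2α kinases, 10.4 and 8.53. The ATF4 target ASNS, which encodes asparagine synthetase, and the stress factor ATF3 had a MYC peak in replicate 1 alone, with fold enrichments of 12.8 and 9.004, as SESN2 did. ATF3 also had an HSF1 peak in replicate 2 alone, with a fold enrichment of 4.13.

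The 4 genes with HSF1 peaks in both replicates were SYVN1, the ubiquitin ligase of ER-associated degradation, EIF2AK2 (PKR), SLC7A5 and DDIT4, an mTORC1 inhibitor. At each, at least 1 HSF1 peak of a replicate overlapped 1 of the other. The strongest HSF1 fold enrichments in replicates 1 and 2 were 5.64 and 4.16 at SYVN1, 5.29 and 4.95 at EIF2AK2, 6.80 and 5.21 at SLC7A5, and 4.60 and 4.18 at DDIT4. All were above the 3.21 to 4.43 of the stress genes in replicate 1 except that DDIT4 and SYVN1 in replicate 2 lay within that range. They too were far below those at HSPA8. At SLC7A5, with 4 HSF1 peaks in replicate 1 and 3 in replicate 2, the strongest values of the 2 replicates came from different sites. Its overlapping peaks upstream of the start had fold enrichments of 6.80 and 4.52 in replicates 1 and 2. Those overlapping inside the gene had 3.73 and 5.21.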

How the data were processed

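Per the submitters' processing notes, the study's methods and the file headers, the authors demultiplexed reads with bcl2fastq 2.20.0, aligned them to GRCh38 with Bowtie2 and called peaks with MACS 2.2.9.1 for each library separately, as paired-end fragments against the same IgG library. The headers name it IgG replicate 2, the labels list a single IgG control, and it was used only through these calls. For each peak the authors deposited a pileup (signal), a −log10 p-value, a fold enrichment (ratio to IgG) and a −log10 q-value, which was not used. The IgG background under a summit was derived from the deposited pileup and fold enrichment.

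Peaks were intersected with GENCODE 44 windows in Python 3.11.15 (pandas 2.3.3, numpy 2.4.6, scipy 1.17.1, pysam 0.24.0; figures with matplotlib 3.10.9). Window and overlap searches were tested on simulated data. Motifs were searched on both strands in GRCh38, and promoters came from RefSeq (GRCh38.p14), with a table entry for each of the 10 genes. Named are the 10 genes, pathway genes with HSF1 peaks in both replicates, the 5 with the highest mean MYC fold enrichment among those with MYC peaks in both, HSP90B1, CALR, ATF3, ASNS, PPP1R15B and EIF2AK4, and neighbours that share a peak. HSPA8, HSP90AA1, HSPH1 and DNAJB1, given for scale, fall outside this rule. The members and lists were chosen with earlier results of these data known. Alternative windows, thresholds, overlaps, motifs and ways of combining replicates were planned, and the RefSeq start window was added after the data were seen.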

Additional observations from a re-analysis of the deposited data

How the results depend on the processing

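The 9 genes with MYC peaks in both replicates became 7 to 10 over the alternatives (7 at the stricter limit of 1e-20 and with RefSeq starts, 8 within the gene body), and the 47 pathway genes 38 to 57 (39 with RefSeq starts, known for 54 of the 62). The 0 genes with HSF1 peaks in both replicates became 4 where either replicate counted, and ranged from 0 without HSF1 replicate 1 to 4 without HSF1 replicate 2. The 4 pathway genes with HSF1 peaks in both became 2 within the gene body, 0 at the stricter limit of 1e-10 and 21 where either replicate counted, and ranged from 9 without HSF1 replicate 1 to 16 without HSF1 replicate 2. The 0 genes with overlapping HSF1 and MYC peaks in both replicate pairs became 4 where either pair counted, 0 without replicate 1 and 4 without replicate 2. All HSF1 calls at the 10 genes thus rest on HSF1 replicate 1. The 2 MYC peaks with an E-box near the summit became 10 over whole peaks and 17 with the looser CANNTG. Of the 51 alternative values, 40, some of them named above, stayed at 0 or within 1.5 times the reported count. Where the reported count was 0, a narrower window, a stricter limit or a larger overlap could only give 0 again. No paired analysis was possible because the results come from counts of called peaks with no test, although the replicates are numbered alike. The lists hold only called peaks, so a missing peak gives no level, and intervals cover counting error only.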
